A study of Mus musculus with 44 samples.

Results

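The MAP kinase phosphatase genes described here are 10 members of the dual-specificity phosphatase (Dusp) family, chosen by symbol as Dusp1, Dusp2, Dusp3, Dusp4, Dusp5, Dusp6, Dusp7, Dusp8, Dusp14 and Dusp16. All 10 were matched by Entrez gene identifier, of 27179 genes listed in the count files. Messenger RNA of dorsal hippocampus was sequenced from WT mice and from homozygous Kdm5b mutants (Kdm5bDARID/DARID), in which a germline deletion of exons 2 to 4 removes the ARID domain of KDM5B, a histone demethylase, so that every cell type carries the mutation. Mice of either genotype were naive (0 h, baseline) or were taken 1 h or 3 h after contextual fear conditioning, in which 3 foot shocks of 0.7 mA were given for 2 s each. Each of the 6 groups held 6 libraries, 3 labelled male and 3 labelled female, on a mixed C57BL/6Jx129S2/Sv F2 background. Mice were 7 to 8 weeks old at sampling. The naive mice stayed in the home cage, so that shock, context and handling cannot be told apart.

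MAP kinases are switched on when an upstream kinase phosphorylates a threonine and a tyrosine in their activation loop, and dual-specificity phosphatases remove both phosphates. Several of these phosphatase genes are themselves transcribed in response to the MAP kinase pathways that they turn off, a classic negative feedback. In neurons, the ERK branch is activated by synaptic input and is required for lasting contextual fear memory. The members fall into nuclear inducible enzymes (Dusp1, Dusp2, Dusp4, Dusp5), cytoplasmic enzymes that prefer ERK (Dusp6, Dusp7), enzymes that prefer JNK and p38 (Dusp8, Dusp16), and small atypical enzymes without a MAP kinase binding domain (Dusp3, Dusp14).

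Before the results, 2 libraries need to be named because they went against their labels. On 4 Y-linked genes, 0 counts were found in the library labelled WT 1 h male 1, while 10239 were found in the library labelled mutant 3 h female 2. Both also stood apart in the members. In the library labelled WT 1 h male 1, Dusp5 (10.7 CPM, TMM-normalized read counts scaled to a common library size) and Dusp6 (49.5 CPM) were the lowest of the group, beside 17.7 to 26.2 CPM and 67.9 to 91.0 CPM in the other 5. In the library labelled mutant 3 h female 2, Dusp1 (18.2 CPM), Dusp5 (23.1 CPM) and Dusp6 (71.3 CPM) were the highest of the group, beside at most 12, 16.9 and 63.6 CPM in the other 5. The summed level of 11 activity-induced genes did the same, lowest of its group in the first, where the other 5 held 665 to 1210 CPM, and highest in the second, at 1190 CPM against at most 635 CPM. The targeted gene, Kdm5b, was 79.4 CPM in the library labelled WT 1 h male 1 against 89.9 to 97.0 CPM in the other 5, and 93.8 CPM in the library labelled mutant 3 h female 2 against 77.6 to 86.1 CPM. Both libraries were kept under their labels, and most results of members that rest on them are also given without them. Pathway genes, cell and region markers and Kdm5b were tested only with both libraries kept.

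Library totals ran from 40274435 to 107000233 counts. Kdm5b was 88.7 ± 4.21 CPM (SD, n = 18) in WT, with libraries from 79.4 to 97.0 CPM, and 83.8 ± 4.82 CPM (SD, n = 18) in mutants, with libraries from 75.8 to 93.8 CPM (log2 difference over the 3 time points -0.083, SE 0.023, edgeR adjusted p = 0.0581). Without the 2 libraries it was 89.3 ± 3.62 CPM in WT and 83.2 ± 4.25 CPM in mutants (SD, n = 17 each). A deletion of a few exons leaves most of the transcript countable, so this level is a weak check of genotype. The 2 markers of the dorsal pole of the hippocampus summed to 202 to 480 CPM over the libraries, and the 3 of the ventral pole to 12.6 to 46.4 CPM. Choroid plexus markers, from tissue that lies against the hippocampus, summed to between 43.0 and 7964 CPM. Their group means were 2518, 1505 and 2647 CPM in WT and 585, 322 and 1510 CPM in mutants at 0, 1 and 3 h. None of the 7 was called over the 3 time points, all 7 were lower in mutants at an unadjusted p under 0.05, and their part in the results below was not tested. In tissue RNA, fewer cells of a type and less RNA per cell cannot be told apart. Each library is taken as 1 mouse, as the study describes, and p-values measure the spread between mice.

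Promoter sequences are shown for Dusp5, Dusp1, Dusp6 and Dusp8, because Dusp5, Dusp1 and Dusp6 varied most closely together across libraries and Dusp8 holds the same motif as Dusp1 while its level moved little. Of the 10 members, 9 had an entry in the RefSeq promoter table (GRCm38.p6), and Dusp4 had none. The 250 bases before the listed start were searched on both strands for the cAMP response element (TGACGTCA, bound by CREB), the AP-1 site (TGANTCA, bound by Fos and Jun proteins), the EGR site (GCGNGGGCG, bound by Egr proteins) and the CArG box (bound by serum response factor, the partner of the ERK-regulated ternary complex factors). Capitals mark the matches, and none of them overlapped another motif. Sequences run 5′ to 3′ on the strand of the gene, for Dusp5 at chr19:53528895-53529144 (plus strand), Dusp1 at chr17:26508473-26508722 (minus strand), Dusp6 at chr10:99262981-99263230 (plus strand) and Dusp8 at chr7:142095285-142095534 (minus strand).
Dusp5: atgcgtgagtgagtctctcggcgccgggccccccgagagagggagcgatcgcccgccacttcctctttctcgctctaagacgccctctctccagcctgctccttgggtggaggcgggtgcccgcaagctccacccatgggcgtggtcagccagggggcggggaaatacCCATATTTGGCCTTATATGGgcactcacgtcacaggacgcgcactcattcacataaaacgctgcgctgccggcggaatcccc
Dusp1: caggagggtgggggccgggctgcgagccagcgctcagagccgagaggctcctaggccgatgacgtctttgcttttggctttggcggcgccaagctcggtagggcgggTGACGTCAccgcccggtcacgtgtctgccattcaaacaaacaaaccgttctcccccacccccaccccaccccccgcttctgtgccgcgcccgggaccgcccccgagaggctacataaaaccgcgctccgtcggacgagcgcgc
Dusp6: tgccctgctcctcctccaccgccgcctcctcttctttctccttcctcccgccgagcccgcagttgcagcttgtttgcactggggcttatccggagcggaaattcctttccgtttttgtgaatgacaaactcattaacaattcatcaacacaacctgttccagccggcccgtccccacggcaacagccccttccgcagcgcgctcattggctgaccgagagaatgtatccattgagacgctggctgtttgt
Dusp8: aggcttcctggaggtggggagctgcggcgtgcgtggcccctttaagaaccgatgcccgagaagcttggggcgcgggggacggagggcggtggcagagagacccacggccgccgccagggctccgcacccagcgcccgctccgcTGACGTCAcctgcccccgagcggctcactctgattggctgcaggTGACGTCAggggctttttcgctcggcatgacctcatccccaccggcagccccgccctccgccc

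The Dusp5 promoter held 2 CArG boxes side by side, 73 to 82 and 63 to 72 bases before the start. A CArG box was present in 1.47% of 32851 promoter windows of the same length. Dusp1 held 1 cAMP response element, 136 to 143 bases before the start, and Dusp8 held 2, which end 100 and 56 bases before it. This motif was present in 1.55% of windows. Dusp2 and Dusp16 each held 1 EGR site, a motif present in 4.70% of windows. No AP-1 site, present in 6.75% of windows, was found in the 9 windows, and Dusp3, Dusp6, Dusp7 and Dusp14 held none of the 4 motifs. Only the listed start of each member was searched. For Dusp3, Dusp8, Dusp14 and Dusp16 the window lies wholly inside the RefSeq bounds of the gene, so a start farther upstream was not covered. A match is a description of these letters and not a shown binding site.

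Levels between genes were compared as CPM per kilobase of merged exons (CPM per kb), averaged over the 36 libraries. Dusp3 (37.7 ± 1.78 CPM per kb, SD, n = 36) and Dusp8 (37.0 ± 2.09) led, and Dusp3 was above Dusp8 in 22 of 36 libraries, so these neighbours did not separate. The ERK-preferring cytoplasmic enzymes came next, with Dusp7 at 23.1 ± 1.67 CPM per kb above Dusp6 at 20.5 ± 3.84 CPM per kb in 26 of 36 libraries. Dusp14 (11.9 ± 1.49) and Dusp4 (10.7 ± 1.95) followed, with Dusp14 above Dusp4 in 26 of 36 libraries. The remaining order was the same in all 36 libraries: Dusp5 at 6.59 ± 2.12, Dusp1 at 3.74 ± 0.898, Dusp16 at 1.94 ± 0.165 and Dusp2 at 0.427 ± 0.130 CPM per kb. Dusp2 rested on 20 to 126 counts per library, and the other 9 members on at least 438. The 2 members with the highest levels are one small atypical and one JNK-preferring and p38-preferring enzyme, and the nuclear inducible enzymes sat in the lower part of the order.

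Exons of 4 members overlap a transcript annotated on the other strand, Dusp1 with Ergic1, Dusp3 with Gm20659, Dusp5 with AC137853.2 and Dusp8 with Gm32786. The strand setting of the counting is not given in the sources used here, so reads in these stretches cannot be assigned to a strand.

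The question of the 1 h samples was which members respond to training in the hippocampus. Over both genotypes, with 12 libraries at 1 h against 12 at 0 h and genotype and sex in the model, 3 of 10 members rose and none fell at an adjusted p under 0.05 (edgeR quasi-likelihood test, Benjamini-Hochberg over all genes). Of the 17907 genes tested, 1.05% were called in either direction and 0.927% were called higher. The 3 were Dusp5, Dusp4 and Dusp6. At an unadjusted p under 0.05, 6 of 10 members were higher and 0 lower, beside 1278 genes higher and 1010 lower among all tested. The median log2 fold change of the members was 0.089, beside -0.009 over all genes tested.

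Dusp5, a nuclear phosphatase specific for ERK and a transcriptional target of it, changed most. In WT it ran from 9.95 through a median of 13.6 to 14.3 CPM at 0 h, and from 10.7 through 19.4 to 26.2 CPM at 1 h. In mutants it ran from 7.26 through 13.8 to 16.8 CPM at 0 h, and from 20.7 through 24.4 to 25.6 CPM at 1 h. In the mutants the 2 time points did not overlap, and in WT 5 of 6 libraries at 1 h were above all 6 at 0 h, the exception being the library labelled WT 1 h male 1. Over both genotypes Dusp5 rose 1.69-fold (log2 fold change 0.76, SE 0.14, edgeR adjusted p = 0.0108). With all libraries kept, 11 of 12 at 1 h were above all 12 at 0 h, and 0.00550% of 18178 genes separated the time points fully. The call held in each of the 24 fits that left out 1 library, with log2 fold changes from 0.69 to 0.82. Without the library labelled WT 1 h male 1, Dusp5 rose 1.77-fold (SE 0.12 on the log2 scale, edgeR adjusted p = 0.000775), and its 11 libraries at 1 h, from 17.7 to 26.2 CPM, were all above its 12 at 0 h. Of 18178 genes, 0.0495% separated the time points this way.

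Dusp4, a nuclear phosphatase of ERK and JNK, had a smaller change on a higher level. In WT it ran from 17.8 through a median of 24.4 to 29.6 CPM at 0 h and from 24.5 through 30.3 to 35.9 CPM at 1 h. In mutants it ran from 21.6 through 25.3 to 31.8 CPM at 0 h and from 31.9 through 36.2 to 39.7 CPM at 1 h. The mutant time points did not overlap, while in WT 3 of 6 libraries at 1 h were above all at 0 h. Over both genotypes Dusp4 rose 1.28-fold (log2 fold change 0.36, SE 0.082, edgeR adjusted p = 0.0343).

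Dusp1, a nuclear phosphatase of p38, JNK and ERK and one of the first genes described as an immediate early phosphatase, ran from 9.77 through a median of 11.6 to 13.4 CPM in WT at 0 h and from 9.93 through 13.6 to 16.95 CPM at 1 h. In mutants it ran from 8.08 through 10.8 to 16.1 CPM at 0 h and from 14.1 through 15 to 18.03 CPM at 1 h. Its time points overlapped in both genotypes, and 2 of 12 libraries at 1 h were above all 12 at 0 h. The log2 fold change of Dusp1 over both genotypes was 0.32 (SE 0.11), about the size of that of Dusp4, with an edgeR adjusted p of 0.182. Before training its spread was wider in mutants, at 11.5 ± 3.57 CPM (SD, n = 6) against 11.6 ± 1.37 CPM in naive WT. Dusp2, an inducible phosphatase best known from immune cells, stayed under 2 CPM in every library and changed by -0.20 on the log2 scale (SE 0.19, edgeR adjusted p = 0.704).

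**Figure D1:**
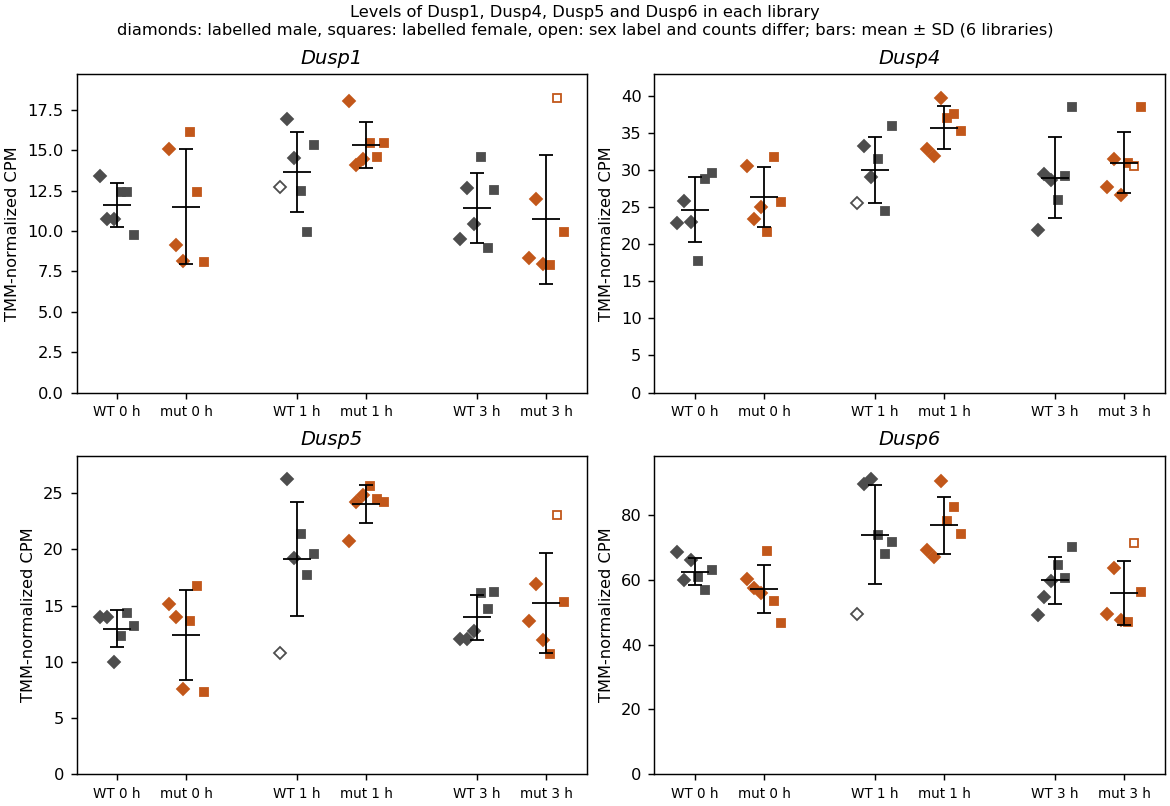
TMM-normalized CPM of Dusp1, Dusp4, Dusp5 and Dusp6 in each of the 36 libraries, by genotype and hours after training; diamonds are libraries labelled male, squares female, open symbols the 2 libraries whose sex label and Y-linked counts differ, and bars the mean ± SD of 6 libraries. Dusp5 at 1 h sits between 17.7 and 26.2 CPM apart from the open symbol at 10.7 CPM, and the open symbols lie at the low end of Dusp5 and Dusp6 in WT at 1 h and at the high end of Dusp1, Dusp5 and Dusp6 in mutants at 3 h.

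Dusp6, the cytoplasmic ERK phosphatase that also holds ERK out of the nucleus, ran from 56.8 through a median of 61.9 to 68.6 CPM in WT at 0 h and from 49.5 through 72.8 to 91.0 CPM at 1 h. In mutants it ran from 46.6 through 56.6 to 69.0 CPM at 0 h and from 66.9 through 76.1 to 90.4 CPM at 1 h. At 1 h, 9 of 12 libraries were above all 12 at 0 h. Dusp6 rose 1.26-fold over both genotypes (log2 fold change 0.33, SE 0.081, edgeR adjusted p = 0.0459). Dusp7, its close relative, changed by 0.090 on the log2 scale (SE 0.039, edgeR adjusted p = 0.319), with group means from 74.1 ± 5.44 CPM in WT at 0 h to 80.3 ± 5.24 CPM in mutants at 1 h (SD, n = 6).

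The calls of Dusp4 and Dusp6 at 1 h stood close to the threshold. With 1 library left out, Dusp4 was called in 10 of 24 fits (once at an edgeR adjusted p that rounds to 0.05, without WT 0 h female 1), with log2 fold changes from 0.32 to 0.39 and edgeR adjusted p up to 0.0738, and Dusp6 in 3 of 24, with 0.30 to 0.38 and up to 0.10. Without the library labelled WT 1 h male 1 the log2 fold change of Dusp4 was 0.38 (edgeR adjusted p = 0.0157) and that of Dusp6 was 0.38 (edgeR adjusted p = 0.00131), in a fit that called 1.99% of genes. The 10 fits that kept Dusp4 left out mutant 0 h female 2 or male 1, mutant 1 h male 1 or male 2, WT 0 h female 1, 2 or 3 or male 2, WT 1 h female 2, or the library labelled WT 1 h male 1. The 3 that kept Dusp6 left out mutant 0 h female 1, WT 1 h female 2 or the library labelled WT 1 h male 1.

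Among the members that prefer JNK and p38, Dusp8 ran from 160 through a median of 180 to 186 CPM in WT at 0 h and from 174 through 188 to 199 CPM at 1 h. In mutants it ran from 160 through 172 to 184 CPM at 0 h and from 172 through 182 to 192 CPM at 1 h. Its log2 fold change over both genotypes was small and precise, 0.088 (SE 0.030, edgeR adjusted p = 0.175), and 6 of 12 libraries at 1 h were above all 12 at 0 h. Dusp16 had group means between 14.6 and 15.4 CPM and its log2 change was -0.038 (SE 0.049, edgeR adjusted p = 0.80). The small atypical enzymes had log2 fold changes of 0.017 (SE 0.026) for Dusp3 and 0.069 (SE 0.058) for Dusp14, with edgeR adjusted p of 0.842 and 0.669.

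**Figure D2:**
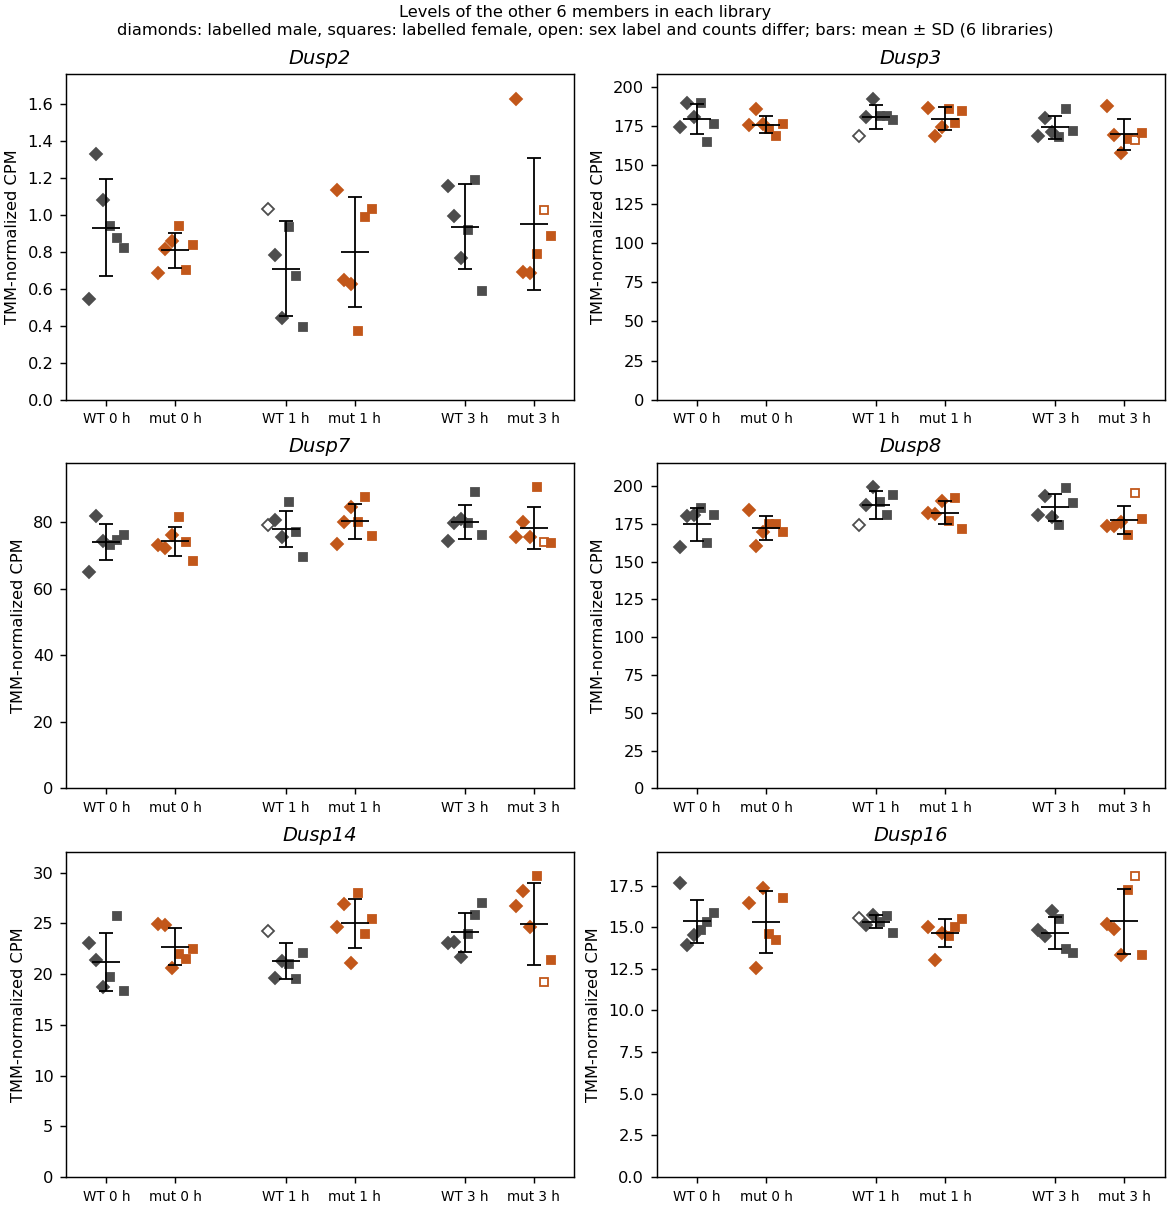
TMM-normalized CPM of Dusp2, Dusp3, Dusp7, Dusp8, Dusp14 and Dusp16 in each of the 36 libraries, drawn as in the plot of the other 4 members, each panel on its own axis from 0. Group means of Dusp3 run from 170 to 181 CPM and those of Dusp16 from 14.6 to 15.4 CPM, and Dusp2 stays under 2 CPM in every library.

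The 3 h samples asked whether a response lasts. Over both genotypes 0 of 10 members were called at 3 h against 0 h, where 1.57% of 17926 genes were called and 1.16% were called higher, and 3 members had an unadjusted p under 0.05, all higher, beside 1451 genes higher and 1264 lower among all tested. These were Dusp4 (log2 fold change 0.23, SE 0.087, edgeR adjusted p = 0.197), Dusp14 (0.16, SE 0.067, edgeR adjusted p = 0.249; 0.19, SE 0.061, edgeR adjusted p = 0.086 without the library labelled mutant 3 h female 2) and Dusp7 (0.092, SE 0.040, edgeR adjusted p = 0.262). Dusp5 stood at 0.20 (SE 0.13), Dusp6 at -0.053 (SE 0.070) and Dusp1 at -0.067 (SE 0.14). Without the library labelled mutant 3 h female 2 these were 0.13 (SE 0.12), -0.088 (SE 0.065) and -0.16 (SE 0.12). In that fit 0 of 10 members were called, where 2.93% of 18060 genes were called. DESeq2 likewise called 0 of 10 at 3 h, in a fit that called 5.08% of genes.

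From 1 h to 3 h, Dusp5 alone passed the test over both genotypes. In WT it ran from 12 through a median of 13.7 to 16.2 CPM at 3 h, and in mutants from 10.7 through 14.5 to 23.1 CPM. The WT values at 3 h lay inside the range of the 1 h libraries only because of the library labelled WT 1 h male 1, and the highest mutant value was the library labelled mutant 3 h female 2. Dusp5 fell by 0.56 on the log2 scale (SE 0.12, edgeR adjusted p = 0.0361), where 0.486% of 17911 genes were called. Dusp5 lost this call with sex as the counts show it and with all 36 libraries in one fit. Dusp6 (-0.39, SE 0.090, edgeR adjusted p = 0.0546) and Dusp1 (-0.39, SE 0.12, edgeR adjusted p = 0.191) had similar changes that did not pass, and Dusp4, at -0.13 (SE 0.074, edgeR adjusted p = 0.537), had a smaller one. The other 6 members lay between -0.068 (Dusp3, SE 0.028, edgeR adjusted p = 0.355) and 0.32 (Dusp2, SE 0.20, edgeR adjusted p = 0.59). At an unadjusted p under 0.05, 4 members were lower and 0 higher, beside 1044 genes lower and 938 higher among all tested.

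Without the 2 libraries that went against their labels, Dusp5 fell by 0.69 (SE 0.085, edgeR adjusted p = 0.000113), Dusp6 by 0.47 (SE 0.075, edgeR adjusted p = 0.00114) and Dusp1 by 0.51 (SE 0.11, edgeR adjusted p = 0.0147) on the log2 scale, so that 3 of 10 members were called in a fit that called 2.09% of genes. All 11 remaining libraries at 3 h, from 10.7 to 16.9 CPM of Dusp5, were below all 11 at 1 h, from 17.7 to 26.2 CPM. Of 18178 genes, 0.0825% separated 1 h from 3 h in this direction. Dusp6 was below all libraries at 1 h in 10 of 11 libraries at 3 h and Dusp1 in 5 of 11. With 1 library left out at a time, 0 to 3 members were called, and the 3 came without the library labelled mutant 3 h female 2. In those 24 fits Dusp5 was called in 10 and kept its direction in all. It lost the call without WT 1 h female 1, male 2 or male 3, WT 3 h male 1, 2 or 3, mutant 1 h female 1 or 2 or male 1, 2 or 3, or mutant 3 h female 3, male 1 or male 3.

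Within each genotype alone, 0 of 10 members were called from 1 h to 3 h, where edgeR called 0% of 17388 genes for WT and 0% of 17247 for mutants, with 1288 and 1387 at an unadjusted p under 0.05. DESeq2 called no member in WT, where it called 0.387% of genes, and Dusp5 and Dusp6 in mutants, where it called 0.511%. In mutants without the library labelled mutant 3 h female 2, Dusp5 fell by 0.81 (SE 0.11, edgeR adjusted p = 0.0162) and Dusp1 by 0.74 (SE 0.11, edgeR adjusted p = 0.0257) on the log2 scale, in a fit that called 0.104% of genes, and Dusp6 stood at -0.54 (SE 0.099, edgeR adjusted p = 0.0742). The 5 remaining mutant libraries at 3 h were below all 6 at 1 h for each of these 3 members, at 10.7 to 16.9 CPM of Dusp5, 7.86 to 12 CPM of Dusp1 and 46.9 to 63.6 CPM of Dusp6. Of 18178 genes, 0.919% separated these groups in that direction.

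**Figure D3:**
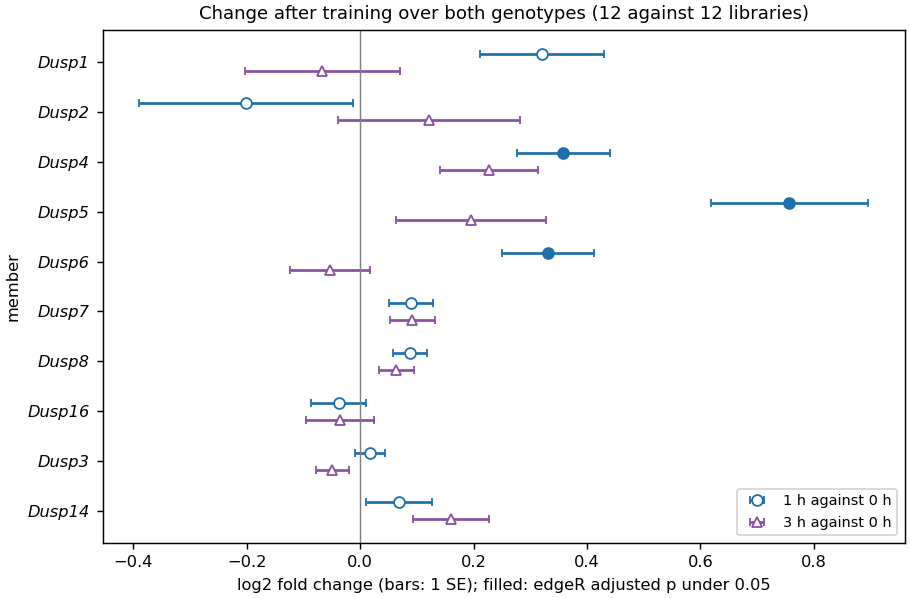
log2 fold change of each member over both genotypes, with 12 against 12 libraries, at 1 h (circles) and 3 h (triangles) against 0 h; bars are 1 SE and filled symbols passed an edgeR adjusted p under 0.05. Dusp5, Dusp4 and Dusp6 are filled at 1 h, no member is filled at 3 h, and at 3 h Dusp1, Dusp6, Dusp5 and Dusp4 stand at -0.067, -0.053, 0.20 and 0.23, or at -0.16, -0.088, 0.13 and 0.24 without the library labelled mutant 3 h female 2 (not drawn).

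The study's central comparison was between genotypes, and no genotype test run here called a member. The paper, which used DESeq2, reports more genes differing between genotypes at each time than edgeR called here. In WT alone, with 6 against 6 libraries, 0 of 10 members were called at 1 h, and edgeR called 0% of 17319 genes, with 928 at an unadjusted p under 0.05. DESeq2 called 5 genes there, and no member. The WT log2 fold changes were 0.56 (SE 0.17) for Dusp5, 0.28 (SE 0.13) for Dusp4, 0.24 (SE 0.12) for Dusp6 and 0.23 (SE 0.12) for Dusp1, with edgeR adjusted p from 0.922 to 0.926. Without the library labelled WT 1 h male 1 they were 0.69 (SE 0.12), 0.32 (SE 0.13), 0.35 (SE 0.056) and 0.26 (SE 0.12), and Dusp5 and Dusp6 both had an edgeR adjusted p of 0.0795.

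In mutants, 0 of 10 members were called at 1 h by edgeR, where 0.312% of 17282 genes were called, with 0.0116% called lower. At an unadjusted p under 0.05, 5 members were higher, beside 1076 genes higher and 837 lower among all tested. The log2 fold changes were 0.95 (SE 0.20) for Dusp5, 0.44 (SE 0.093) for Dusp4, 0.43 (SE 0.094) for Dusp6 and 0.42 (SE 0.18) for Dusp1, with edgeR adjusted p of 0.0883, 0.0809, 0.0885 and 0.404. DESeq2 called Dusp5, Dusp4 and Dusp6 here, with adjusted p of 0.00264, 0.00115 and 0.00111, in a fit that called 2.00% of genes. Dusp4 and Dusp5 were the 2 members whose mutant libraries did not overlap between 0 h and 1 h, and 1.02% of 18178 genes separated the 2 groups upwards. The largest log2 fold change of a member was that of Dusp5 in either genotype, with and without the library labelled WT 1 h male 1.

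The response to training was not called different between genotypes for any member. The interaction, as mutant minus WT log2 fold change at 1 h, was 0.39 (SE 0.27) for Dusp5, 0.19 (SE 0.16) for Dusp6, 0.18 (SE 0.22) for Dusp1 and 0.16 (SE 0.16) for Dusp4, all with an edgeR adjusted p of 0.999. Without the library labelled WT 1 h male 1 these were 0.28 (SE 0.24), 0.097 (SE 0.12), 0.16 (SE 0.23) and 0.12 (SE 0.17). With any 1 of the 24 libraries left out, they ran from 0.28 to 0.53 for Dusp5, from 0.097 to 0.27 for Dusp6, from 0.10 (without mutant 0 h male 3) to 0.32 (without mutant 0 h female 1) for Dusp1 and from 0.10 (without WT 1 h female 2) to 0.25 (without WT 0 h female 1) for Dusp4, and none was called. Among all 17907 genes 0% were called and 677 had an unadjusted p under 0.05, and DESeq2 called 2. The genotype difference in the change at 3 h gave no call for a member either, with edgeR at 0% of 17926 genes and 273 at an unadjusted p under 0.05.

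**Figure D4:**
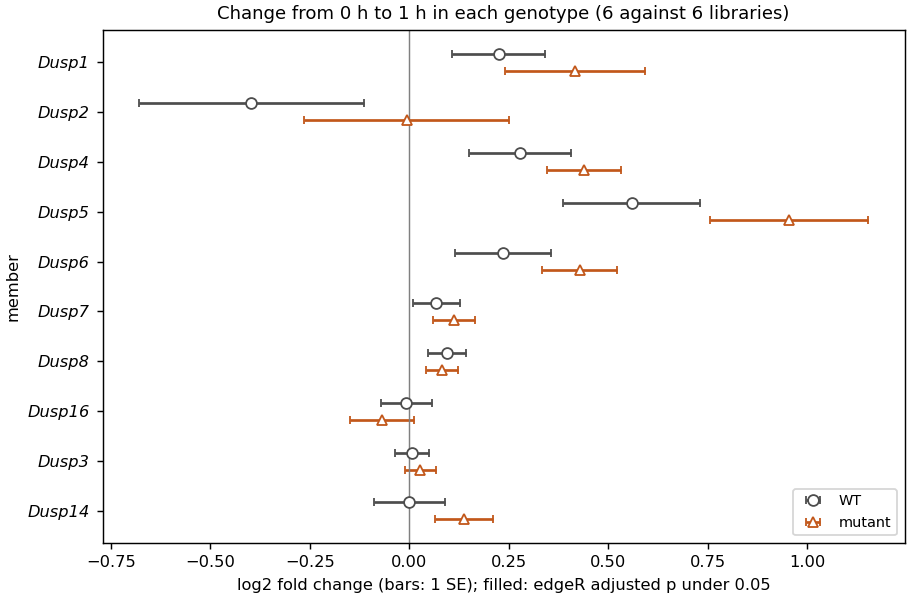
log2 fold change from 0 h to 1 h of each member in WT (circles) and in mutants (triangles), each from 6 against 6 libraries; bars are 1 SE, and no symbol is filled because no member passed an edgeR adjusted p under 0.05 in either genotype. Dusp5 is farthest right in both, at 0.56 in WT and 0.95 in mutants, and the bars of WT and mutants overlap or nearly touch for Dusp1, Dusp4, Dusp5 and Dusp6.

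At fixed times, the differences of mutants from WT ran from -0.20 (Dusp2) to 0.094 (Dusp14) at 0 h and from -0.10 (Dusp1) to 0.13 (Dusp5) at 3 h on the log2 scale. Both ends at 3 h rest on the library labelled mutant 3 h female 2. Without it, mutants at 3 h held 13.7 ± 2.53 CPM of Dusp5 and 9.22 ± 1.75 CPM of Dusp1 (SD, n = 5). WT at 3 h held 13.95 ± 1.98 and 11.44 ± 2.18 CPM (SD, n = 6). No member was called at 0 h, 1 h or 3 h, where edgeR called 0%, 0% and 0.0115% of genes, and DESeq2 also called no member, with 0.0787%, 0.494% and 0.246% of genes called. At 1 h the differences ran from -0.069 (Dusp16) to 0.33 (Dusp5, SE 0.16, edgeR adjusted p = 0.597). That of Dusp5 was 0.21 (SE 0.092, edgeR adjusted p = 0.467) without the library labelled WT 1 h male 1. In the fit with all libraries, 2 members had an unadjusted p under 0.05, beside 1487 of 17261 genes. These were Dusp14, a regulator of T-cell and TAK1 signalling, at 25.01 ± 2.42 CPM in mutants against 21.3 ± 1.77 CPM in WT (SD, n = 6; log2 difference 0.23, SE 0.073, edgeR adjusted p = 0.386), and Dusp4, at 35.7 ± 2.95 against 30.0 ± 4.44 CPM (0.25, SE 0.090, edgeR adjusted p = 0.432). Over the 3 time points, with 18 against 18 libraries, Dusp14 differed by 0.13 (SE 0.052, edgeR adjusted p = 0.219) and Dusp4 by 0.15 (SE 0.067, edgeR adjusted p = 0.272), where 1.30% of 18186 genes were called. Dusp14 was the highest of its group in the library labelled WT 1 h male 1 (24.3 CPM) and the lowest in the library labelled mutant 3 h female 2 (19.2 CPM). Without these libraries its differences were 0.28 (SE 0.069, edgeR adjusted p = 0.136) at 1 h and 0.16 (SE 0.049, edgeR adjusted p = 0.0637) over the 3 time points, and those of Dusp4 were 0.21 (SE 0.091, edgeR adjusted p = 0.438) and 0.14 (SE 0.070, edgeR adjusted p = 0.306). Markers of dentate granule cells moved the same way over the 3 time points, with 2 of 5 called higher in mutants and a median log2 difference of 0.24. Group means of their sum were 257 to 284 CPM in WT (SD 32.0 to 78.2, n = 6 each) and 275 to 318 CPM in mutants (SD 24.1 to 60.8). The paper places C1ql2, 1 of these 5, among genes overexpressed in mutants whatever the time. The 5 CA1 markers had lower group means of their sum in mutants at each time, 720 to 792 CPM against 774 to 835 CPM in WT (SD 44.5 to 134 over the 6 groups). Of 5 astrocyte markers 1 was called higher in mutants, with group means of their sum of 1446 to 1543 CPM for WT and 1595 to 1601 CPM for mutants. The choroid plexus markers given above moved the other way, with a median log2 difference of -1.75. The part of these markers in the member values was not tested.

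Across libraries, the pairs of Dusp1, Dusp5 and Dusp6 had the highest correlations among the members. Pearson's r of log2 CPM over the 36 libraries was 0.78 between Dusp5 and Dusp6, 0.72 between Dusp1 and Dusp5, 0.72 between Dusp1 and Dusp6, and 0.63 between Dusp4 and Dusp5. After the group means were taken out these were 0.70, 0.65, 0.58 and 0.39, and without the 2 libraries that went against their labels, over 34 libraries, they were 0.52, 0.63, 0.56 and 0.38. The points share normalization and tissue, and r is given as a description. Dusp6 with Dusp8 followed at 0.48, with 0.43 after the group means were taken out and 0.22 when the 2 libraries were also left out. The lowest r after the group means were taken out was -0.49, between Dusp8 and Dusp14, and that pair stood at -0.34 without the 2 libraries. The r of each member with the library total lay between -0.17 and 0.15.

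**Figure D5:**
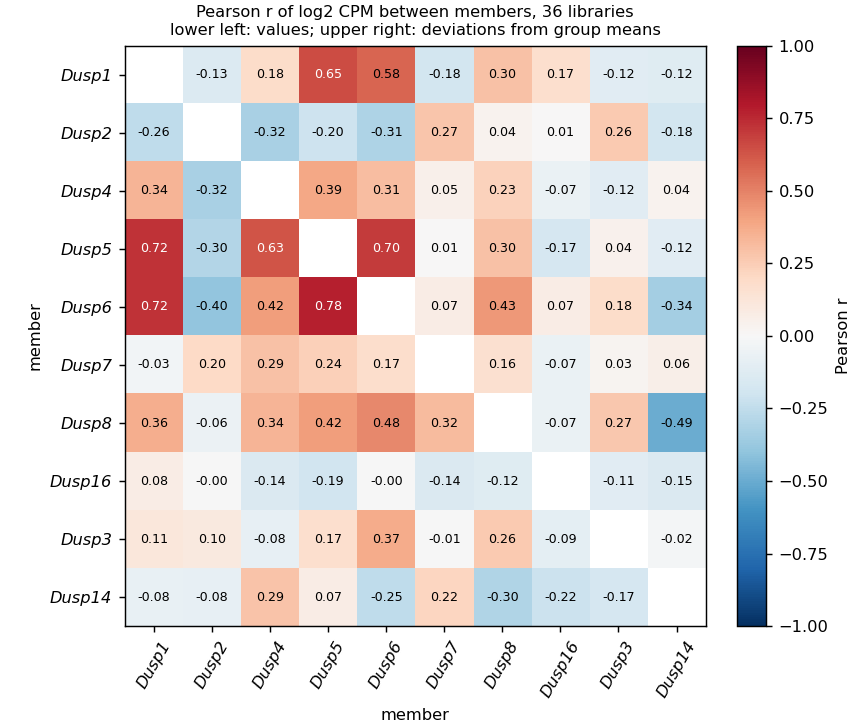
Pearson's r of log2 CPM for each pair of members over 36 libraries, with values below the diagonal and deviations from the group means above it, coloured from -1 to 1. Dusp1, Dusp5 and Dusp6 hold the 3 highest values on both sides, 0.72 to 0.78 below and 0.58 to 0.70 above the diagonal.

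The genes most like each member, ranked by r of log2 CPM over the 36 libraries among all genes kept, included genes of the activity-induced list for 3 members. For Dusp1 they were Arc (r = 0.90), the synaptic cytoskeletal protein gene, Junb (0.87) and Fos (0.84). For Dusp6 they were Nr4a1 (0.89), an orphan nuclear receptor gene, Arc (0.88) and Junb (0.84). For Dusp5 they were Egr4 (0.87), Tiparp (0.87), a mono-ADP-ribosyltransferase gene, and Junb (0.87). Without the 2 libraries that went against their labels, over 34 libraries, r was 0.89 for Dusp1 with Arc, 0.90 for Dusp6 with Nr4a1 and 0.87 for Dusp5 with Egr4. Dusp4 was closest to Bcl6 (0.74), a transcriptional repressor gene, and to Gpt2 (0.74) and Gse1 (0.72), and no gene of the activity-induced list was among its 3. After the group means were taken out, r was 0.61, 0.64 and 0.54 for these genes, and they ranked 21, 7 and 47. For Dusp5 and Egr4 it was 0.75 (rank 6), while Arc for Dusp1 (0.87), Nr4a1 for Dusp6 (0.87) and Tiparp for Dusp5 (0.80) ranked 1. Of the 30 values of r for the 3 nearest genes of each member, 7 moved by 0.1 or more this way. For the other 6 members the highest r was between 0.65 and 0.79. The 3 nearest genes were Bsdc1, Zbtb4 and Rasl10b for Dusp8, Mir9-3hg, Brat1 and 1700028K03Rik for Dusp2, and Mtus1, Asap3 and Cpne3 for Dusp16. They were Ncald, Shmt1 and Ilk for Dusp14, Pld3, Bnip3 and Septin6 for Dusp3, and Cdk5r2, Cebpb and Tet3 for Dusp7.

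The other genes of the pathway were read at 1 h against the same 1.05% of all genes called. They were tested only with all libraries kept under their labels, so how far their calls rest on single libraries was not tested. Of 16 genes of the ERK cascade from Ras to ERK, 1 rose and 0 fell. It was Ksr1, a scaffold that holds RAF, MEK and ERK together (log2 fold change 0.23, SE 0.052, edgeR adjusted p = 0.0285), and it was also higher at 3 h against 0 h (0.36, SE 0.062, edgeR adjusted p = 0.00874). Of 11 MAP kinase-activated kinases, 1 rose and 0 fell. It was Mknk2, a kinase of the translation factor eIF4E (0.26, SE 0.045, edgeR adjusted p = 0.00521), and it was again higher at 3 h (0.19, SE 0.045, edgeR adjusted p = 0.0281). Of 17 genes of the JNK and p38 cascades, 0 were called at 1 h, and at 3 h 1 rose, Map3k5, an upstream kinase of both (0.17, SE 0.039, edgeR adjusted p = 0.0238). Map3k5 also rose from 1 h to 3 h (0.14, SE 0.032, edgeR adjusted p = 0.0496). It was the gene of that list called between genotypes over the 3 time points, lower in mutants by a log2 difference of -0.12 (SE 0.031, edgeR adjusted p = 0.0448).

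Of 6 Spry and Spred genes tested, feedback inhibitors that block activation of the ERK cascade, 0 were called at 1 h. At an unadjusted p under 0.05, 4 of the 6 were higher, beside 1278 of 17907 over all genes, and their median log2 fold change was 0.15. Spred2 (0.14, SE 0.036, edgeR adjusted p = 0.0633) and Spred1 (0.16, SE 0.042, edgeR adjusted p = 0.0750) had the smallest p. Of 13 other Dusp genes tested, 0 were called and 0 had an unadjusted p under 0.05 in either direction at 1 h, with a median of -0.052. The 2 tyrosine phosphatases of MAP kinases that were tested, Ptpn5 and Ptprr, had log2 fold changes of -0.068 (SE 0.069) and -0.011 (SE 0.042). Of 11 activity-induced genes, 10 rose at 1 h, with a median of 0.78, among them Fosb (1.36, SE 0.11, edgeR adjusted p = 1.54e-07), Egr3 (0.41, SE 0.061, edgeR adjusted p = 0.002) and Egr4 (0.92, SE 0.15, edgeR adjusted p = 0.00521). The log2 fold change of Dusp5, 0.76, lay close to the median of that list, and those of Dusp4 (0.36) and Dusp6 (0.33) lay below it.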

How the data were processed

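Messenger RNA of dorsal hippocampus was sequenced in 36 libraries. Per the labels and methods, the authors aligned reads to mm10 with STAR 2.7.8a and deposited raw counts per gene from featureCounts 2.0.1. The annotation and strand setting are not given in the sources used here. Gene names came from RefSeq (GRCm38.p6) by Entrez identifier and matched 25275 of 27179 genes, and 1.28% of counts lay on unnamed identifiers. Exon lengths came from GENCODE (GRCm38).

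Counts were tested with edgeR 4.0.16 (R 4.3.3, limma 3.58.1): filterByExpr with a minimum of 10 counts, TMM factors, and a robust quasi-likelihood test with sex as labelled. Genes were called at a Benjamini-Hochberg adjusted p under 0.05 over all genes tested. TMM-normalized read counts on a common library size (CPM) were computed over the 36 libraries, and correlations used log2 CPM with a prior count of 2. DESeq2 1.42.0, other scalings, filters, covariates and left-out libraries were alternatives. The code was tested on simulated data. Library totals were 40274435 to 107000233 counts, and counting error is largest for Dusp2, at 20 to 126 counts. No 2 libraries of a group held identical counts in 90 pairs.

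The members and the lists (pathway genes, activity-induced genes and cell or region markers) were chosen with earlier results of these data known. All 10 members are named, with the called genes of each pathway list (the strongest where there were many), and the 3 genes most like each member. Likeness and member correlations (also after group means were taken out) without the libraries of discordant sex were added after seeing the data. Tables and figures were written with Python 3.11.15 and its packages pandas 2.3.3, Matplotlib 3.10.9, NumPy 2.4.6 and SciPy 1.17.1.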

Additional observations from a re-analysis of the deposited data

Results flagged for a closer look

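In 60 sets of 6 libraries (10 members in 6 groups), 4 held a library far from the other 5 by Dixon's test, which chance gives in about 1 of 20 sets. Dusp1 was 18.03 CPM in mutant 1 h male 1, with the next library at 15.5 CPM. Dusp5 was 20.7 CPM in the same library, the lowest of its group, with the next at 24.2 CPM. Dusp2 was 1.63 CPM in mutant 3 h male 1, with the next at 1.03 CPM. Dusp7 was 90.5 CPM in mutant 3 h female 1, with the next at 80.0 CPM.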

How the results depend on the processing

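The number of members called was 0 under every setting run in 11 of 15 comparisons. Across alternatives other than leaving out 1 library, 152 of 162 such counts stayed within 1.5 times the main count. The 10 that did not follow. From 1 h to 3 h over both genotypes, 1 member was called, against 2 with DESeq2 with or without sex, 0 with sex as the counts show it, and 3 without the libraries of discordant sex. Dusp5 lost that call with sex as the counts show it (adjusted p = 0.0623) and with all 36 libraries in one fit (0.0545), where Dusp6 was called in its place (0.0345). In mutants at 1 h, 0 were called, against 3 with DESeq2 with or without sex and 1 with all 36 libraries in one fit. In mutants from 1 h to 3 h, 0 were called, against 2 with DESeq2 with or without sex and 2 without the libraries of discordant sex. With 1 library left out, the counts ran from 1 to 3 at 1 h over both genotypes, 0 to 3 from 1 h to 3 h, 0 to 1 in mutants at 1 h and 0 to 2 in mutants from 1 h to 3 h. Dusp6 lost its call at 1 h with library totals (adjusted p = 0.0524), with no filter (0.0586) and with the replicate block (0.0529). Libraries were not treated as paired by replicate number. Between groups, 40 of 90 pairs of libraries with the same sex and number had deviations with r over 0.1 (median 0.0695). Pairs with different numbers were not compared, so whether replicate numbers pair the samples was not tested. With the replicate block 2 members were called at 1 h in place of 3, with no other count changed. The genotype difference of Dusp6 at 1 h was 0.056, and -0.040 without the libraries of discordant sex. With 1 library left out it ran from -0.040 to 0.13, and the 1 h changes of Dusp3 and Dusp16 in WT ran from -0.017 to 0.033 and from -0.032 to 0.044, and that of Dusp2 in mutants from -0.16 to 0.15. The causes were not tested. Leaving out single libraries was not run for the genotype difference over the 3 time points or the genotype difference in the change at 3 h.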
